A study of Solanum lycopersicum with 8 samples.

Results

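HSP101 (Solyc03g115230) and an organellar ClpB (Solyc02g088610) are 2 genes of the HSP100 family of protein disaggregases. They were taken by gene ID, version suffix dropped, from the 29345 genes listed for each library, and both were measured in all 8 libraries. Their names rest on published tomato nomenclature, since the deposited tables hold IDs alone.

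RNA came from young leaves and from anthers of several developmental stages of tomato cv Moneymaker plants that were 8 weeks old. The plants were wild type (WT) or A2AS, which the study is known to have made as transgenics with the heat stress transcription factor HsfA2 suppressed (promoter of the construct and number of lines: not given in the sources used here). Heated plants spent 1 h at 39 °C in a growth chamber and 1.5 h of recovery at 24 °C, and the labels do not describe what was done with control plants. Tissue, genotype and treatment make 8 groups of 1 library each, so a difference between 2 libraries has no replicate check. Levels are in CPM (tags scaled to 1000000 per library) from massive analysis of cDNA ends. It reads each transcript once at its 3′ end, so that no gene length enters. The listed genes hold 69.2% to 73.4% of the scaled tags of a library. Levels of different genes are compared on the assumption that their tags were assigned equally well, which was not tested. Brackets hold exact 95% intervals, which cover counting error only.

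HSP100 proteins of this kind form rings that pull polypeptides out of aggregates through a central pore, so that the polypeptides can fold again. They work with HSP70 and its J-domain partners, and small heat shock proteins bound to unfolding proteins keep the aggregates accessible. HSP101 is the cytosolic and nuclear form, needed for acquired heat tolerance in Arabidopsis and maize, while organellar ClpB proteins do the corresponding work in mitochondria or plastids. Heat stress factors of the HsfA1 and HsfA2 type switch on chaperone genes of this kind in tomato.

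The shallowest library, heated A2AS leaf, had 6243965 reads and the others 11534512 to 14764187, where 3 reads correspond to 0.480 CPM and to 0.203 to 0.260 CPM. The 3 listed Rubisco small subunit genes, markers of leaf, summed to 13678 to 38082 CPM in leaf and 1967 to 2776 CPM in anthers. The 5 listed anther genes (LAT52, MS10, MS32, TDF1 and AMS) summed to 383 to 625 CPM in anthers and 4.51 to 6.71 CPM in leaf, where MS32 was at 0 in A2AS control leaf. HsfA2, the targeted gene, stood at 10.3 CPM in WT control leaf and 21.7 CPM in WT heated leaf, against 2.25 and 2.72 CPM in A2AS leaf. In WT anthers its level was 1.93 CPM before and 22.3 CPM after heat, against 1.08 and 39.3 CPM in the libraries labelled A2AS. The HsfA2 level of the heated anther library labelled A2AS thus goes against that label, which bears on every direction drawn from this library. It is 1 library, and why its HsfA2 level was higher was not tested.

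HSP101 was high in heated anthers and low in unheated leaf of A2AS plants. In leaf it was at 43.4 CPM (39.7 to 47.4) in WT control and 156 CPM (150 to 163) in WT heat. In A2AS leaf it was at 9.35 CPM (7.81 to 11.1) in control and 62.5 CPM (56.4 to 69.0) after heat. In anthers it was at 29.4 CPM (26.5 to 32.6) in WT control and 539.6 CPM (527 to 552) in WT heat. In anthers labelled A2AS it was at 31.1 CPM (28.3 to 34.1) in control and 669 CPM (656 to 683) after heat. All 4 heated libraries therefore stood above all 4 control libraries for HSP101, and the heated anther libraries stood above the heated leaf libraries. In the order of the 8 levels, the intervals of neighbours overlapped between the control anthers of both genotypes and nowhere else. In heated anthers labelled A2AS, HSP101 was the 89th most abundant of 25076 genes detected, and in A2AS control leaf it was the 8301st of 23175.

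Organellar ClpB had another order, with WT heated leaf at the top. It was at 44.4 CPM (40.6 to 48.4) in WT control leaf and 323 CPM (313 to 332) in WT heated leaf. In A2AS leaf it was at 26.0 CPM (23.4 to 28.9) in control and 74.0 CPM (67.4 to 81.1) after heat. In anthers it was at 25.2 CPM (22.5 to 28.2) in WT control and 59.6 CPM (55.6 to 63.8) in WT heat. In anthers labelled A2AS it was at 23.9 CPM (21.5 to 26.5) in control and 131 CPM (126 to 137) after heat. Again the 4 heated libraries stood above the 4 control libraries. The intervals of A2AS control leaf and both control anther libraries overlapped, so these 3 lowest levels did not differ beyond counting error. WT heated leaf ranked ClpB as the 282nd most abundant gene of 23748, against 2181st of 24860 in WT heated anthers. The reads assigned to ClpB were whole numbers in 8 of 8 libraries. Those of HSP101 ended in 0.5 of a read in 4 libraries, so some HSP101 reads appear to have been counted in parts. Why was not tested (the counting of reads that match more than 1 place: not given in the sources used here).

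**Figure D1:**
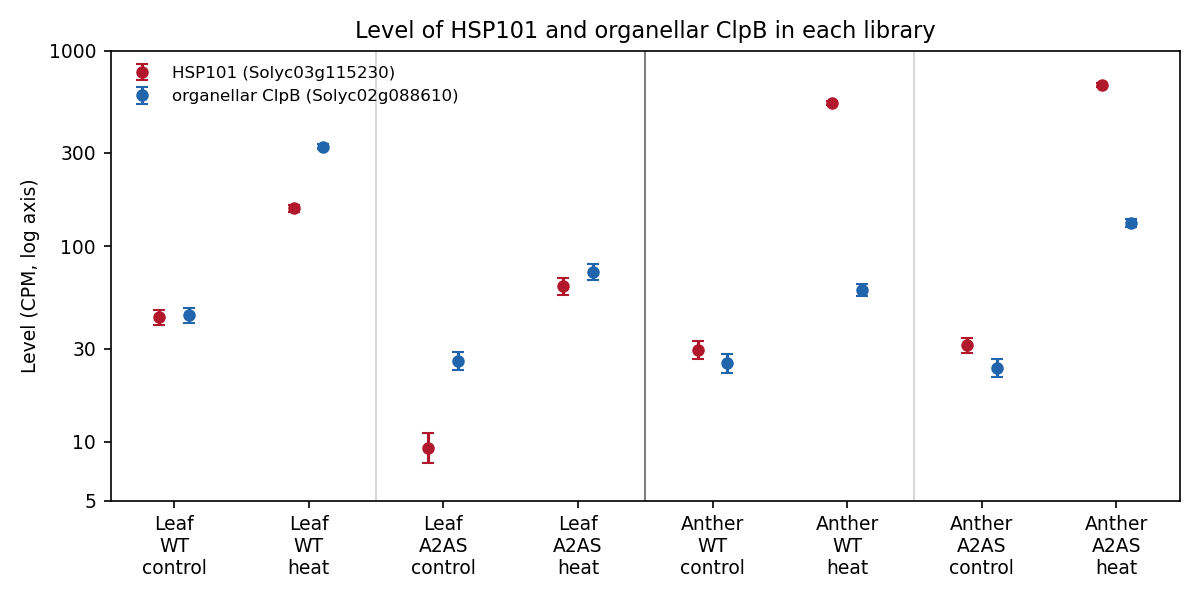
Level in CPM (log axis) of HSP101 (red) and organellar ClpB (blue) in each of the 8 libraries, with bars for exact 95% counting intervals. HSP101 reaches 539.6 and 669 CPM in the heated anther libraries, while ClpB peaks at 323 CPM in WT heated leaf.

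Heat over control was at least 2-fold higher for both genes in all 4 pairs, but the gene with the larger ratio differed. In WT leaf HSP101 was 3.60-fold (3.27 to 3.98) and ClpB 7.27-fold (6.63 to 7.98) higher, where 4.39% of 8833 genes averaging 10 CPM or more over the pair were 2-fold higher or more. In A2AS leaf HSP101 was 6.68-fold (5.46 to 8.22) and ClpB 2.84-fold (2.47 to 3.27) higher, against 2.83% of 8153 genes. In WT anthers HSP101 was 18.3-fold (16.5 to 20.4) and ClpB 2.36-fold (2.07 to 2.70) higher, against 2.81% of 9288 genes. In anthers labelled A2AS HSP101 was 21.5-fold (19.6 to 23.7) and ClpB 5.49-fold (4.90 to 6.17) higher, against 2.42% of 9485 genes. ClpB thus had the larger heat ratio in WT leaf alone among the 4 pairs. Among genes ordered by heat ratio, ClpB was 36th in WT leaf and 170th in WT anthers, and HSP101 was 98th in WT leaf and 32nd in WT anthers.

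Over the 4 heat pairs both genes rose. By limma with Benjamini-Hochberg adjustment, HSP101 rose by 3.24 ± 0.42 log2 (SE; adjusted p = 0.0194) and ClpB by 1.98 ± 0.27 log2 (adjusted p = 0.0217), each higher in 4 of 4 pairs. The test called 1.87% of 15220 genes higher (284 genes, with 115 lower; 204 and 259 under median-ratio scaling). Its error term is the variation of the heat response between the 4 tissue and genotype pairs, since there are no replicate plants. The HSP101 call was lost without the A2AS leaf pair (limma adjusted p = 0.0887). The ClpB call was lost without the WT leaf pair (0.0778), the A2AS leaf pair (0.0873) or the A2AS anther pair (0.0660), all limma adjusted p, and with additive terms for tissue, genotype and treatment (0.0683). With no expression minimum the adjusted p rose to 0.110 and 0.111 by limma.

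**Figure D2:**
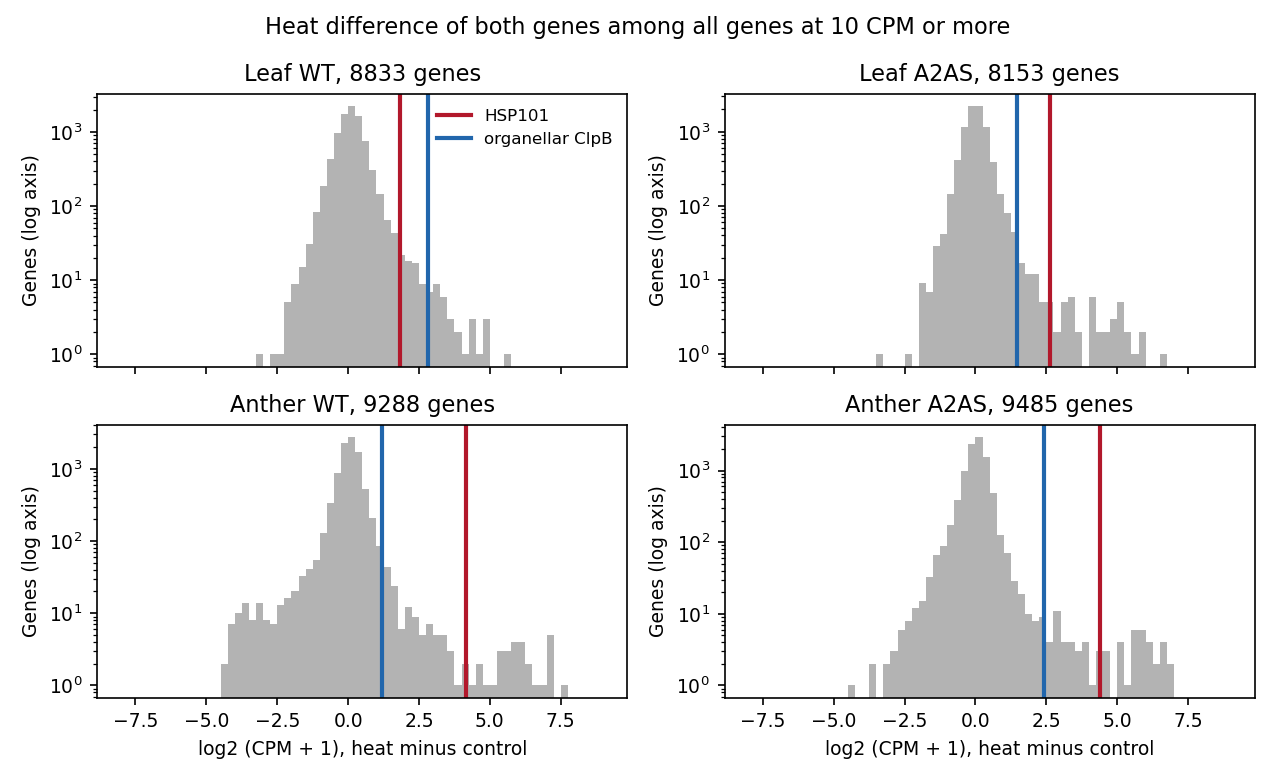
Histograms of the heat difference, log2 (CPM + 1) in heat minus control, over all genes averaging 10 CPM or more over the pair, with a line for HSP101 (red) and one for organellar ClpB (blue); the gene axis is a log axis. The lines change places between WT leaf, where ClpB lies further right, and the other 3 pairs, where HSP101 does.

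The heat response of HSP101 was larger in anthers than in leaf. Its heat ratio was 5.09 times (4.40 to 5.89) as large in WT anthers as in WT leaf and 3.22 times (2.56 to 4.03) as large in anthers labelled A2AS as in A2AS leaf. With the genotypes as the only repeats, limma put the heat difference 2.05 ± 0.27 log2 higher in anthers (SE; adjusted p = 0.0397), where 0.361% of 15220 genes were called in that direction. Leaving out 1 pair leaves 1 tissue with a lone pair, which is assumed to vary like the pairs of the other tissue. No p-value is read from such fits, so they cannot show whether the call depends on 1 pair. The HSP101 value was 1.65 log2 without the WT leaf pair and 2.44 log2 without the A2AS leaf pair. Its call was lost with no expression minimum (limma adjusted p = 0.202). For ClpB the genotypes did not go the same way. Its heat ratio in WT anthers was 0.325 times (0.277 to 0.383) that in WT leaf, and in anthers labelled A2AS it was 1.93 times (1.61 to 2.32) that in A2AS leaf. The limma difference for ClpB was −0.34 ± 0.54 log2 (adjusted p = 0.815). Its sign turned without the WT leaf pair (0.34) or the WT anther pair (0.26). Anthers of several stages were pooled, and in bulk samples a change in the number of cells of a type and a change in RNA per cell cannot be told apart. The summed anther genes went from 625 to 551 CPM with heat in WT and from 383 to 460 CPM in the libraries labelled A2AS, and their part in these results was not tested.

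The genotypes differed in leaf. HSP101 was 4.65-fold (3.82 to 5.68) lower in A2AS than in WT control leaf, where 3.13% of 8331 genes were at least 2-fold lower, and ClpB was 1.71-fold (1.49 to 1.96) lower, which is short of 2-fold. In heated leaf HSP101 was 2.51-fold (2.25 to 2.80) and ClpB 4.36-fold (3.96 to 4.81) lower, and 7.55% of 8727 genes were at least 2-fold lower there. Thus HSP101 had the wider gap before heat and ClpB the wider gap after it. The median of all genes at 10 CPM or more lay at −0.21 log2 in the control and −0.32 log2 in the heated leaf comparison. Median-ratio scaling left HSP101 at −1.01 log2 and ClpB at −1.81 log2 in heated leaf. The summed Rubisco small subunit genes were at 38082 CPM in A2AS against 23593 CPM in WT control leaf, and at 31992 against 13678 CPM in heated leaf. Their part in the leaf differences was not tested.

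In control anthers neither gene differed between genotypes beyond counting error. HSP101 was at 1.06 times (0.919 to 1.22) and ClpB at 0.948 times (0.812 to 1.11) the WT level, where 2.25% of 9213 genes differed at least 2-fold. In heated anthers labelled A2AS, ClpB was 2.20-fold (2.03 to 2.39) higher than in WT, a size reached by few genes (0.981% of 9476 were at least 2-fold higher). HSP101 was 1.24-fold (1.20 to 1.28) higher there. HsfA2 was itself higher in that library, at 39.3 against 22.3 CPM, so the label does not describe its HsfA2 level.

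**Figure D3:**
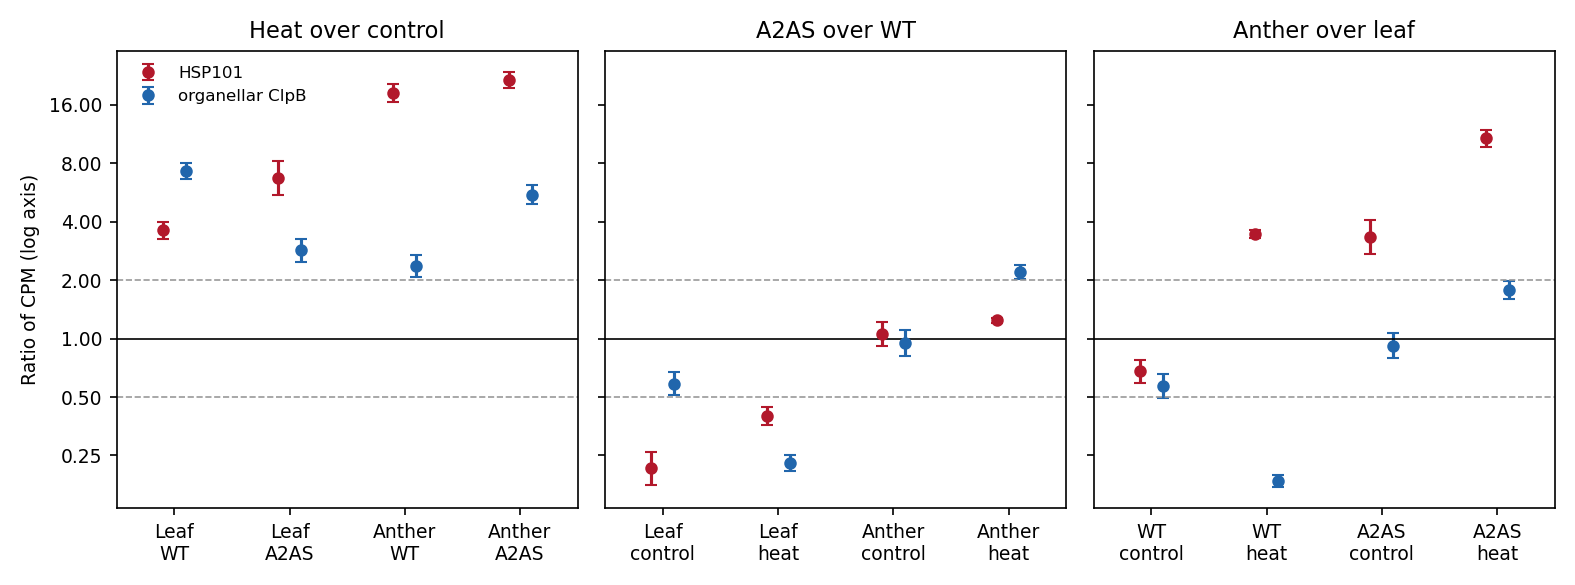
Ratio of CPM (log axis) of HSP101 (red) and organellar ClpB (blue) in the 4 pairs of each comparison, with bars for exact 95% counting intervals and dashed lines at 2-fold. A2AS over WT lies below 1 for both genes in leaf (0.215 to 0.586), and between 0.948 and 2.20 in anthers.

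Across both tissues, A2AS had no effect on either gene that passed the limma test. The difference was −0.76 ± 0.37 log2 for HSP101 (SE; limma adjusted p = 0.609) and −0.45 ± 0.43 log2 for ClpB (adjusted p = 0.713). No gene was called among 15220 by limma, with 1313 at an unadjusted p under 0.05, and HSP101 and ClpB are not among those. ClpB turned to 0.10 log2 without the heated leaf pair, and HSP101 was at −0.31 log2 without the control leaf pair. The difference between tissues was itself called for HSP101. Limma put its A2AS difference 1.90 ± 0.27 log2 higher in anthers than in leaf (SE; adjusted p = 0.0417), with 2.01% of genes called in that direction and a median of all genes at 0.28 log2. Over all genes 306 were called higher and 158 lower in this test, against 112 and 459 under median-ratio scaling, which put the median at −0.02 log2, and 134 and 238 with the 100 most abundant genes left out of the total. For ClpB it was 1.96 ± 0.54 log2 (limma adjusted p = 0.0829). The HSP101 call was lost with no expression minimum (limma adjusted p = 0.158). Leaving out 1 pair again leaves a lone pair in 1 tissue, so only the sizes are given. The HSP101 difference was 1.50 log2 without the control leaf pair and 2.30 log2 without the heated leaf pair. Without single pairs the ClpB difference ran from 1.27 log2 (heated leaf left out) to 2.64 log2 (control leaf left out). It was 2.56 log2 without the control anther pair and 1.35 log2 without the heated anther pair.

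Whether heat acted differently in the genotypes was tested with the tissues as the only repeats. In leaf the HSP101 heat ratio was 1.85 times (1.48 to 2.33) as large in A2AS as in WT, from a control level of 9.35 against 43.4 CPM. The ClpB heat ratio in A2AS leaf was 0.391 times (0.331 to 0.463) the WT ratio, from control levels of 26.0 and 44.4 CPM. In anthers both ratios were larger in the libraries labelled A2AS, by 1.17 times (1.02 to 1.35) for HSP101 and 2.32 times (1.95 to 2.77) for ClpB. Over both tissues the limma difference was 0.51 ± 0.91 log2 for HSP101 and −0.08 ± 0.60 log2 for ClpB, with a limma adjusted p of 1 for each. The test called 0 of 15220 genes, with 228 at an unadjusted p under 0.05 by limma. The differences changed sign without single pairs: HSP101 to −0.65 without WT leaf and −0.37 without A2AS anther, and ClpB to 0.73 without WT leaf and 0.39 without A2AS leaf.

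Between the tissues, the genes parted after heat in WT plants and already in unheated plants labelled A2AS. In WT control plants HSP101 was at 0.678 times (0.590 to 0.776) and ClpB at 0.568 times (0.492 to 0.655) its leaf level in anthers, where 40.1% of 9289 genes differed at least 2-fold. In heated WT plants HSP101 was 3.45-fold (3.29 to 3.62) higher in anthers, while ClpB was 5.41-fold (5.02 to 5.84) lower. Differences of that size were common between the tissues, with 17.5% of 9627 genes at least 2-fold higher and 18.9% at least 2-fold lower. In control plants labelled A2AS HSP101 was 3.32-fold (2.73 to 4.07) higher in anthers, against 27.8% of 9151 genes, and ClpB was at 0.919 times (0.791 to 1.07) its leaf level. In heated plants labelled A2AS HSP101 was 10.7-fold (9.68 to 11.9) higher in anthers, against 27.5% of 9336 genes, and ClpB 1.78-fold (1.60 to 1.97) higher. Over the 4 tissue pairs HSP101 was higher in anthers by 1.57 ± 0.50 log2 (SE; limma adjusted p = 0.0219; higher in 3 of 4 pairs), a test that called 41.6% of 15220 genes higher (6335, with 3597 lower). Median-ratio scaling moved the median of all genes from 0.30 to 0.05 log2 in this test and the calls to 4918 higher and 4700 lower. The call was lost under median-ratio scaling (limma adjusted p = 0.0680), with the 100 most abundant genes left out of the total (0.0518), with no expression minimum (0.0881), and without the heated WT pair (0.0568) or the heated A2AS pair (0.0752). ClpB differed by −0.63 ± 0.43 log2 (limma adjusted p = 0.223), by −1.11 log2 without the heated A2AS pair (limma adjusted p = 0.0340) and by −0.030 log2 without the heated WT pair (limma adjusted p = 0.933).

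The split of reads between the genes shows the same values in 1 measure. HSP101 made up 49.5% (46.3 to 52.6) of the reads of both genes in WT control leaf, 53.8% (50.0 to 57.6) in WT control anthers and 56.5% (53.0 to 60.0) in control anthers labelled A2AS. A2AS control leaf stood apart from these 3 at 26.4% (22.6 to 30.6). After heat the share was 32.7% (31.5 to 33.8) in WT leaf and 45.8% (42.4 to 49.2) in A2AS leaf, so it was lower than in control in WT leaf and higher in A2AS leaf. In heated anthers it was 90.1% (89.4 to 90.7) in WT and 83.6% (82.9 to 84.3) in the library labelled A2AS. In WT heated anthers there were 9.05 HSP101 tags for each ClpB tag, and in WT heated leaf 2.06 ClpB tags for each HSP101 tag.

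**Figure D4:**
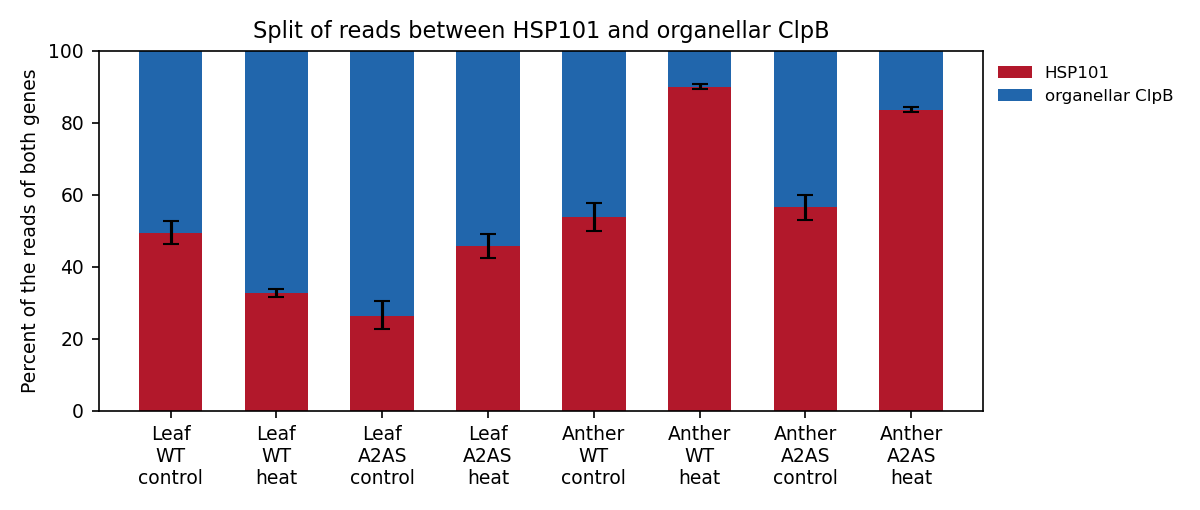
Percent of the reads of both genes that belong to HSP101 (red) and to organellar ClpB (blue) in each library, with bars for exact 95% binomial intervals of the HSP101 share. HSP101 holds 83.6% to 90.1% in heated anthers and 26.4% to 49.5% in leaf.

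Other chaperones were taken from lists of 12 small heat shock protein, 11 HSP70 and 4 HSP90 genes. The HSP90 genes are given for comparison, not as partners of the disaggregases. By limma over the 4 heat pairs, 12 of 12 small heat shock proteins rose (median 5.12 log2), 5 of 10 HSP70 genes tested rose and 1 fell (median 0.75 log2), and 2 of 4 HSP90 genes rose (median 1.19 log2), against a median of 0.06 log2 over all genes and 1.87% called higher. The remaining HSP70 gene, Solyc07g005820, was at or below 0.274 CPM in every library. The summed HSP70 genes pool cell compartments, so values set against that sum are not relative to the partners of either disaggregase alone. Relative to the summed HSP70 genes, HSP101 stood at 1.80 tags per 100 in unheated and 4.73 in heated leaf of WT plants. In WT anthers it stood at 1.88 before and 16.0 after heat. ClpB stood at 1.84 tags per 100 HSP70 tags in unheated and 9.75 in heated WT leaf, and at 1.61 before and 1.77 after heat in WT anthers. In A2AS leaf HSP101 went from 0.692 to 3.79 tags per 100 HSP70 tags with heat and ClpB from 1.93 to 4.49. In anthers labelled A2AS HSP101 went from 1.75 to 15.4 and ClpB from 1.35 to 3.02, so the nearly level ClpB value was seen in WT anthers alone of the 4 pairs. Relative to the summed small heat shock proteins, HSP101 was lower after heat, at 1.22 against 4.47 tags per 100 in WT leaf and 4.25 against 19.3 in WT anthers. It was at 1.12 against 5.89 in A2AS leaf and at 5.30 against 16.0 in anthers labelled A2AS. The summed small heat shock proteins thus had a larger heat ratio than HSP101 in all 4 pairs. A larger heat difference in anthers than in leaf was not particular to HSP101. By limma it was called for 4 of 12 small heat shock proteins (median 2.21 log2). All 12 had an unadjusted p under 0.05 by limma, among them Solyc05g014280, which went the other way (−2.87 log2). It was called for 1 of 10 HSP70 genes (median 0.26 log2) and 0 of 4 HSP90 genes (median −0.24 log2), against 0.361% of all genes.

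In A2AS leaf many of the listed chaperone genes were lower along with the disaggregases. In control leaf 11 of 11 small heat shock proteins, 5 of 9 HSP70 and 3 of 4 HSP90 genes averaging 10 CPM or more over the pair were at least 2-fold lower in A2AS, against 3.13% of all genes. In heated leaf these counts were 5 of 12, 6 of 10 and 2 of 4, against 7.55%. The list medians there were −0.95, −1.34 and −0.71 log2, against −0.32 log2 over all genes, so many genes lay near the 2-fold bound. Median-ratio scaling moved HSP101 from −1.33 to −1.01 log2 in this comparison. The list counts were not repeated under that scaling and would be sensitive to it. In heated anthers labelled A2AS, 0 of 12 small heat shock proteins, 1 of 10 HSP70 genes and 1 of 4 HSP90 genes were at least 2-fold higher, as ClpB was, against 0.981% of all genes. The difference in A2AS between tissues was called by limma, as for HSP101, for 2 of 12 small heat shock proteins and 5 of 10 HSP70 genes, and for 0 of 4 HSP90 genes (4 at an unadjusted p under 0.05), all higher in anthers. Over all genes 2.01% were called in that direction, or 306 genes, and 112 under median-ratio scaling.

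Likeness to each disaggregase was measured as Pearson's r of log2 (CPM + 1) over the 8 libraries, among 15219 other genes averaging 2 CPM or more. It is a description, since the 8 points share tissue and treatment. HSP101 and ClpB had r = 0.67 with each other, and ClpB stood at rank 2012 in likeness to HSP101. For HSP101 the 100 most alike genes held 4 of 12 small heat shock proteins, 3 of 10 HSP70 genes and 1 of 4 HSP90 genes, where 100 genes are 0.657% of all. The small heat shock protein Solyc08g078700 was the sixth gene at r = 0.979 and the HSP70 gene Solyc11g066100 the ninth at r = 0.977. Solyc11g066100 went from 29.7 to 148 CPM in WT leaf and from 7.41 to 338 CPM in WT anthers, with the larger heat ratio in anthers (2.55 ± 0.37 log2; limma adjusted p = 0.0483). For ClpB the 100 most alike genes held 1 gene of each list, the HSP90 gene Solyc07g065840 (r = 0.934), the HSP70 gene Solyc11g020040 (r = 0.929) and the small heat shock protein Solyc03g082420 (r = 0.920). Pearson's r does not measure the size of a change. Solyc07g065840 went only from 909 to 1255 CPM with heat in WT leaf and from 747 to 888 CPM in WT anthers. Its heat difference was not called (0.43 log2, limma adjusted p = 0.0805).

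Solyc11g020040, listed as the HSP70 of the chloroplast stroma, was the listed HSP70 gene most like ClpB. It was at 14.7 CPM in WT control leaf and 333 CPM in WT heated leaf, and at 1.52 and 110 CPM in A2AS leaf. In WT anthers its level was 2.74 CPM before and 14.9 CPM after heat, and 2.24 and 36.4 CPM in the libraries labelled A2AS. WT heated leaf was thus its highest library and heated anthers labelled A2AS stood above heated WT anthers, as for ClpB. In heated plants labelled A2AS, however, Solyc11g020040 was lower in anthers than in leaf, while ClpB was higher (131 against 74.0 CPM). The chloroplast small heat shock protein Solyc03g082420 was also highest in WT heated leaf, at 4221 CPM. It stood at 1327 and 1393 CPM in heated anthers of WT and those labelled A2AS, above heated A2AS leaf at 741 CPM. For ClpB the heated anthers labelled A2AS stood above heated A2AS leaf, and the heated WT anthers (59.6 CPM) below it. Of the listed genes, 7 of 10 HSP70, 8 of 12 small heat shock protein and 3 of 4 HSP90 genes were more like HSP101 than ClpB.

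**Figure D5:**
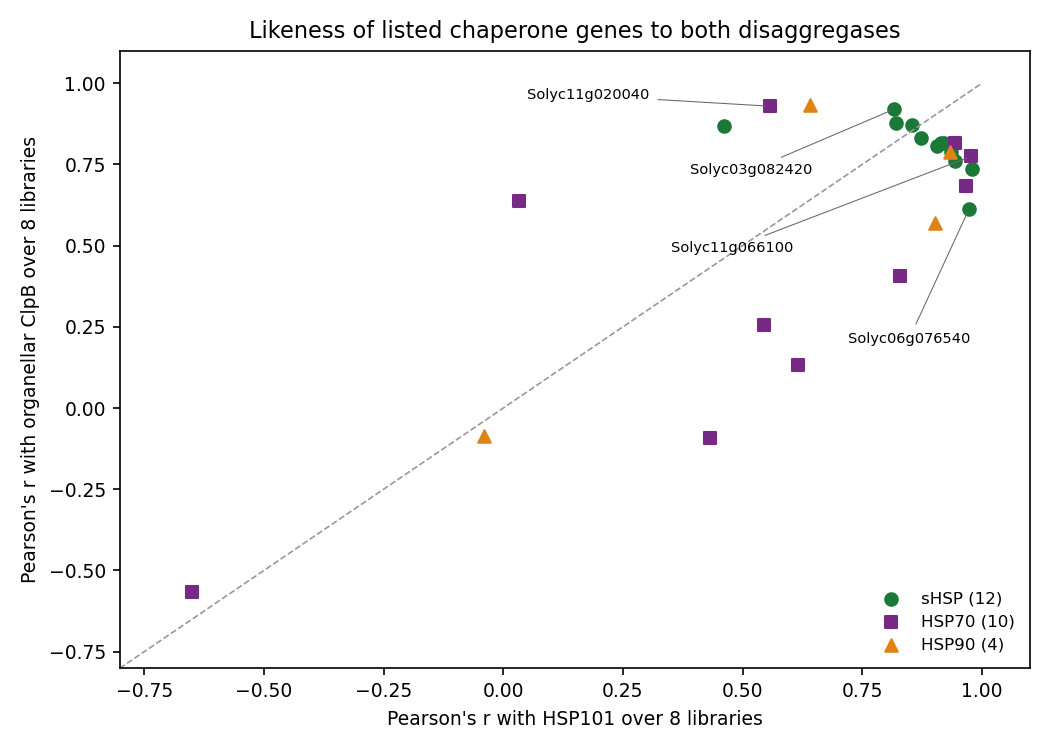
Pearson's r of listed small heat shock protein (circles), HSP70 (squares) and HSP90 (triangles) genes with HSP101 (horizontal axis) and with organellar ClpB (vertical axis) over 8 libraries, with a dashed line where both are equal. Solyc11g020040 lies well above the line (r = 0.558 and 0.929) and Solyc06g076540 well below it (r = 0.973 and 0.612).

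Among the listed Hsf genes, HsfA2 had the pattern most like either disaggregase, at r = 0.87 with HSP101 and 0.76 with ClpB, and no Hsf gene was among the 100 most alike of either. HsfA7 had r = 0.85 with HSP101 and 0.41 with ClpB, and HsfA3 had r = 0.16 and 0.64. HsfA3, a factor known in Arabidopsis to act downstream of DREB2A, was at 38.1 to 51.8 CPM in leaf and 10.2 to 31.5 CPM in anthers. HsfA7 was at 1.56 to 3.84 CPM in leaf and reached 9.62 and 12.0 CPM in heated anthers of WT and those labelled A2AS. By limma 0 of 5 listed Hsf genes were called for heat, with 4 at an unadjusted p under 0.05.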

How the data were processed

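The authors deposited 1 table of CPM values (called TPM there) for each of 8 libraries, tags scaled to 1000000 with no length term. Per the labels' protocols, poly(A) RNA was captured and read over the final 500 bp of its 3′ end. FastQC is named in the submitters' processing notes; aligner, counting method, use of strand, genome build and annotation: not given in the sources used here. Library depth (6243965 to 14764187 reads) is 1000000 over the commonest step of the values; 77.6% to 83.9% of values above 0 were whole reads within 0.001, too few for a count model.

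Groups came from the labels. Ratios are of CPM as deposited, with exact Clopper-Pearson or conditional intervals from rounded reads. Tests used limma 3.58.1 (R 4.3.3) on log2(CPM + 1), genes averaging 2 CPM or more, the pair as block, variance trend and Benjamini-Hochberg adjustment at 0.05. Those of heat over all pairs and of its difference between tissues were also run on simulated data, and the other comparisons were not. Members and gene lists were chosen with earlier results of these data known. Beyond the members and HsfA2, genes named have the widest heat ratios of their list or are among the 100 most like a member. The Rubisco and anther genes are tissue markers; Solyc07g005820, HsfA7 and HsfA3 complete counts. List names come from published nomenclature: 0 of 41476 reference gene rows hold such IDs, and no sequence was used here.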

Additional observations from a re-analysis of the deposited data

Results flagged for a closer look

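Both results listed here are differences between tissues that passed a test of the difference itself. They use the same 8 libraries and the same error term (SE 0.27 log2 for HSP101 in both), so the 2 calls are not independent. The heat difference of HSP101 was larger in anthers than in leaf by 2.05 log2 (limma adjusted p = 0.0397), and larger in anthers in both genotypes. By limma, 4 of 12 listed small heat shock proteins and 1 of 10 HSP70 genes were also called in that direction. The A2AS difference of HSP101 was higher in anthers than in leaf by 1.90 log2 (limma adjusted p = 0.0417), and higher in anthers in both treatments. Each rests on 4 pairs of single libraries and includes the heated anther library labelled A2AS, in which HsfA2 stood at 39.3 CPM. Without the pair that holds that library the values were 1.93 log2 for heat and 1.78 log2 for A2AS. A lone anther pair then remains, which is assumed to vary like the leaf pairs, so its p-value is not read here. The heat value was 1.65 log2 without the WT leaf pair and 2.44 log2 without the A2AS leaf pair. The A2AS value was 1.50 log2 without the control leaf pair and 2.30 log2 without the heated leaf pair. A lone leaf pair remains in these fits, so their p-values are not read either. Whether the calls depend on a single pair therefore cannot be shown. Both calls were lost with no expression minimum (limma adjusted p = 0.202 for heat and 0.158 for A2AS).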

How the results depend on the processing

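Each group has 1 library, so depth sets the counting error and nothing measures the spread between plants. The labels give no replicate numbers, so no block by replicate number could be fitted; the blocks in the limma tests are pairs of libraries that differ in 1 factor. Of the 24 pair ratios, 0 crossed 2-fold under the 4 alternatives tried, and 1 changed direction: HSP101 in control anthers, A2AS over WT, went from 0.08 to −0.0074 log2 under median-ratio scaling. Values that left their counting interval are given in log2.

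Under median-ratio scaling, heat in WT leaf was 1.68 for HSP101 and 2.69 for ClpB. A2AS over WT was −0.56 for ClpB in control leaf, −1.01 for HSP101 and −1.81 for ClpB in heated leaf, and 0.23 for HSP101 in heated anthers. Anther over leaf was 1.70 for HSP101 in heated WT, 1.30 for HSP101 and −0.55 for ClpB in A2AS control, and 2.94 and 0.34 in heated plants labelled A2AS. With the 100 most abundant genes left out of the total, A2AS over WT was −1.13 for HSP101 and −1.93 for ClpB in heated leaf, and 0.26 for HSP101 in heated anthers. Anther over leaf was then −0.40 for ClpB in A2AS control, and 3.12 for HSP101 and 0.53 for ClpB in heated plants labelled A2AS. With 5 CPM added to each value, heat was 2.23 for HSP101 in A2AS leaf, 3.98 in WT anthers and 4.22 in A2AS anthers, and 2.24 for ClpB in A2AS anthers. HSP101 was then at −1.75 for A2AS over WT in control leaf and 1.33 for anther over leaf in A2AS control.

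By limma, these calls were lost with no expression minimum: heat for HSP101 (3.24 log2, adjusted p = 0.110) and ClpB (1.98, 0.111), anther over leaf for HSP101 (1.57, 0.0881), and its differences between tissues in heat (2.05, 0.202) and A2AS (1.90, 0.158). With no minimum 28978 genes were tested instead of 15220, and those called for heat went from 284 higher and 115 lower to 45 and 6, and in either difference between tissues to 0 (3492 and 5671 at an unadjusted p under 0.05 by limma). With additive terms ClpB lost its heat call (1.98, 0.0683), and 142 genes were called higher and 56 lower; with 5 CPM added these were 185 and 70, and the calls for the tissue difference in A2AS went from 306 and 158 to 103 and 65, or to 619 and 234 at a minimum mean of 10 CPM. Median-ratio scaling took the tissue difference in heat from 55 and 90 to 73 and 141. HSP101 lost anther over leaf under median-ratio scaling (1.29, 0.0680) and with those 100 genes left out (1.39, 0.0518). The cause was not tested.

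Leaving out 1 pair at a time, heat ranged from 2.86 to 3.72 log2 for HSP101 and from 1.70 to 2.24 for ClpB. A2AS ranged from −1.11 to −0.31 for HSP101 and from −0.98 to 0.10 for ClpB, and anther over leaf from 0.96 to 2.27 for HSP101 and from −1.11 to −0.030 for ClpB. The tissue difference in heat ranged from 1.65 to 2.44 for HSP101 and from −1.02 to 0.34 for ClpB. The tissue difference in A2AS ranged from 1.50 to 2.30 for HSP101 and from 1.27 to 2.64 for ClpB. The genotype difference in heat ranged from −0.65 to 1.68 for HSP101 and from −0.89 to 0.73 for ClpB.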

Other observations

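Among genes on none of the lists, Solyc08g079170 and Solyc06g083190 were most like HSP101 over the 8 libraries (Pearson's r = 0.988 and 0.985). Solyc08g079170 went from 161 to 405 CPM with heat in WT leaf and from 132 to 1063 CPM in WT anthers. Solyc06g083190 went from 150 to 519 CPM in WT leaf and from 173 to 1432 CPM in WT anthers. Those most like ClpB were Solyc01g056720 and Solyc06g066050 (r = 0.983 and 0.976), with far smaller ratios. Solyc01g056720 went from 40.0 to 60.7 CPM in WT leaf and from 35.6 to 40.3 CPM in WT anthers. Solyc06g066050 went from 15.9 to 30.7 CPM in WT leaf and from 10.6 to 14.6 CPM in WT anthers.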
